A study of Mus musculus with 12 samples.

Results

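A set of 10 genes of the granulocyte and monocyte program were followed in mouse PreMegEs, the bone marrow progenitors that can give rise to both megakaryocytes and red cells. The set was chosen by gene symbol and held the transcription factor genes Spi1, Cebpa and Irf8, the granule and lysosome genes Mpo, Elane, Prtn3, Ctsg and Lyz2, and the cytokine receptor genes Csf1r and Csf3r. All 10 were found, each as 1 row, among the 41128 genes of the count table. Lyz2, Mpo, Prtn3, Spi1 and Csf3r were higher in P2+ than in P2- PreMegEs, and Lyz2 and Cebpa were lower in RUNX1C knockout (KO) than in WT PreMegEs.

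RNA-Seq was performed on 4 groups of PreMegEs with 3 libraries each, every library made from cells pooled from 3 C57BL/6 mice aged 12 to 16 weeks. Runx1 has a distal promoter, P1, from which the isoform RUNX1C is made, and a proximal promoter, P2. WT PreMegEs came from wild type mice. The P2- and P2+ groups were hCD4 negative and hCD4 positive PreMegEs from Runx1 P1-GFP::P2-hCD4/+ reporter mice, in which 1 Runx1 allele reports P1 with GFP and P2 with a truncated human CD4. Both fractions were GFP positive and were sorted from mice of this 1 genotype. The KO group came from RUNX1C knockout mice, in which the P1-GFP insertion is homozygous and P2 is left in place. The reporter fractions therefore carried a knock-in allele that WT did not, and a comparison of either fraction with WT differed in genotype as well as in the sort. The study's account of its RNA-Seq names WT, P2- and P2+ PreMegEs and not KO. It does not tell whether the KO and WT libraries were made together.

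Spi1 encodes PU.1, Cebpa encodes C/EBPα and Irf8 encodes a factor of monocyte and dendritic cell development. Together these factors drive granulocyte and monocyte differentiation and bind near the genes of granule proteins and myeloid cytokine receptors. Low levels of such genes in progenitors of other lineages are known as myeloid priming, and PU.1 is known for its antagonism with GATA-1 in the choice between myeloid and erythroid fates. In bulk libraries, fewer cells expressing a gene and less of its RNA per cell cannot be told apart.

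Total counts on genes ran from 10726098 to 14445026 per library. Levels are given in CPM, counts relative to the total of the library after scaling by the trimmed mean of M values over the 12 libraries. A floor of 3 counts, used here for genes close to absence, was 0.208 to 0.286 CPM. These floors cover counting error only. Runx1, counted over both promoters, had 358 to 388 CPM in WT, 201 to 216 in P2-, 613 to 658 in P2+ and 340 to 382 in KO. These values do not check the loss of RUNX1C, because transcripts of P2 are counted in the same row. All 12 genes examined as PreMegE markers, among them Kit, Gata1 and Gata2, were above the floor in all 12 libraries. This list includes Itga2b and Eng, which encode CD41 and Endoglin, antigens that the PreMegE gate excludes. Xist was at 0 CPM in P2- library 2 and at 5.21 CPM in P2+ library 2, and the Y-linked gene Ddx3y was at 0 in P2- library 3 and P2+ library 3, so that the sex of the pooled mice differed between libraries of a group and was alike in the 2 fractions of 1 number.

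The promoters of the granule genes are shown because all 5 of these genes were called lower in KO than in WT by the edgeR test. DESeq2 did not call Mpo or Elane. Genes and motifs were chosen with such results known, so the shares of windows below are descriptions. RefSeq start sites on the GRCm38.p6 build were found for 8 of the 10 genes, and the 250 bases before each start were searched on both strands for short motifs. The ETS motif GAGGAAGT, of the kind PU.1 binds, was present before Mpo, Elane and Prtn3 and in 2.44% of 32851 promoter windows of all genes. The RUNX motif TGTGGT was present before Ctsg and Lyz2 and in 14.0% of all windows. The loose C/EBP motif TTNCNNAA was present before Lyz2, without overlapping the RUNX match, and in 36.8% of all windows. The C/EBP palindrome TTGCGCAA, which is 1 form of the loose motif and was found in 0.164% of all windows, and the GATA motif AGATAA, found in 9.99%, were in none of the windows of these genes. The 30 bases around 4 of the matches are given on the strand of the gene with the match in capitals, and none of them overlapped an annotated exon.
Mpo, chr11:87793549-87793578, plus strand: gtggagagagaGAGGAAGTtgcctttgtcc
Elane, chr10:79886216-79886245, plus strand: cgtgtcccaggGAGGAAGTagggctgtggc
Prtn3, chr10:79879561-79879590, plus strand: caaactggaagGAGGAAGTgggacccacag
Ctsg, chr14:56102636-56102665, minus strand: actgtgtgggacACCACAtgggcgtgggca
In these lines, the capitals are the ETS motif in Mpo, Elane and Prtn3 and the reverse complement of the RUNX motif in Ctsg. The ETS match started 224 bases before the start site in Mpo, 85 in Elane and 95 in Prtn3. These distances are to the RefSeq start, which for Prtn3 lies 5191 bases inside the longer GENCODE gene interval given below, so that its match is within that interval. For Mpo and Elane the RefSeq start lies 203 and 65 bases inside the GENCODE interval, and their matches lie before that interval. A match is a description of the letters and was not tested as a binding site.

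Per length of exon, Lyz2 was the most abundant of the 10 genes in each group, with 73.4 ± 7.10 RPKM (SD, n = 3) in WT and 140 ± 6.68 RPKM in P2+. Mpo followed in WT with 23.6 ± 14.7 RPKM, and its libraries lay below those of Lyz2. Prtn3 with 11.9 ± 3.52, Spi1 with 11.2 ± 1.24, Cebpa with 8.26 ± 3.26, Elane with 7.67 ± 1.81 and Ctsg with 6.63 ± 5.0 RPKM in WT came next. Libraries of neighbours in this run overlapped, whereas every WT library of Prtn3 and Spi1 lay above every WT library of Elane. Irf8 at 2.88 ± 1.72, Csf3r at 2.45 ± 1.09 and Csf1r at 0.548 ± 0.651 RPKM were the least abundant in WT. In P2- Irf8 with 0.852 ± 0.419, Ctsg with 0.787 ± 0.639 and Csf1r with 0.0441 ± 0.0416 RPKM were the lowest, and Irf8 and Ctsg did not differ beyond their spread. The 10 genes summed to between 226 and 403 CPM in WT, 98.4 and 131 in P2-, 378 and 574 in P2+, and 131 and 188 in KO. Mpo and Lyz2 together made up between 41.0% and 64.4% of that sum in the 12 libraries.

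**Figure D1:**
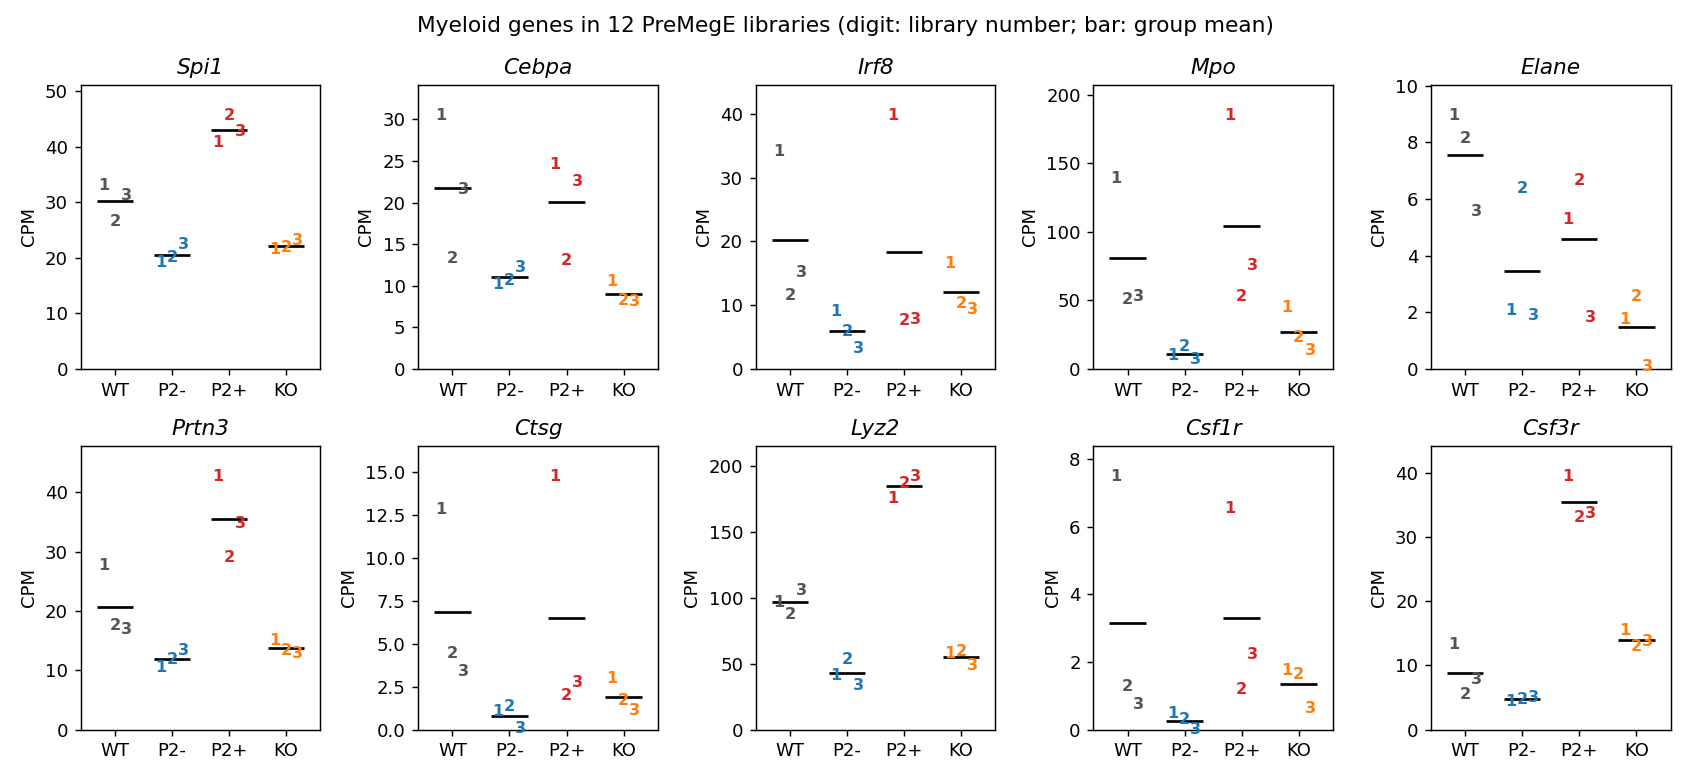
Level of each gene in CPM (vertical axis, linear and from 0) in the 4 groups; each digit is 1 library, drawn as its number, and the bar is the mean of the 3 libraries. Lyz2 and Spi1 form tight groups with P2+ on top, while Irf8, Mpo, Ctsg and Csf1r have WT library 1 and P2+ library 1 far above the other libraries.

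Spi1, on chr2:91082390-91115756, had 33.0, 26.5 and 31.1 CPM in the 3 WT libraries, 19.1, 20.1 and 22.3 in P2-, 40.7, 45.6 and 42.7 in P2+, and 21.5, 21.9 and 23.0 in KO. The 3 groups P2+, WT and KO were separate from one another in this descending order, and P2- libraries overlapped those of KO. Spi1 was 1.07 ± 0.11 (log2 fold change ± SE) higher in P2+ than in P2- (adjusted p = 0.000119, edgeR quasi-likelihood test). It was 0.51 ± 0.11 higher in P2+ than in WT (adjusted p = 0.0129). It fell by 0.46 on the log2 scale in KO against WT (SE 0.12, adjusted p = 0.0122) and by 0.55 in P2- against WT (SE 0.13, adjusted p = 0.0171). The spread within groups was small, with a coefficient of variation between 3.62% and 11.1%. The gene most alike to Spi1 over the 12 libraries was Arhgap25 (Pearson r of log2 CPM 0.988, the highest of 9522 genes), then Wls and Cmtm3. Such a likeness is a description, since the genes of 1 library share its group and depth.

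Cebpa, on chr7:35119293-35121928, had 30.5, 13.3 and 21.5 CPM in WT, 10.2, 10.7 and 12.2 in P2-, 24.6, 13.1 and 22.5 in P2+, and 10.6, 8.22 and 8.10 in KO. WT and P2+ overlapped throughout, and both lay above all libraries of P2- and KO. Unlike for Spi1, the mean was not highest in P2+, where it was 20.1 ± 6.15 CPM against 21.8 ± 8.59 in WT. Cebpa fell by 1.29 on the log2 scale in KO against WT (SE 0.23, adjusted p = 0.000819). It fell by 0.97 in P2- against WT (SE 0.26, adjusted p = 0.0278) and was 0.86 ± 0.24 higher in P2+ than in P2- (adjusted p = 0.0204). P2+ and WT gave a log2 fold change of -0.12 ± 0.29 (adjusted p = 0.820). The genes most alike were Spns2 (r = 0.933), Fut7 and Cep19. A gene on the other strand, Gm45091, overlaps Cebpa, and how the counting treated strand is not given in the sources used here.

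Irf8, on chr8:120736358-120756694, had 34.2, 11.5 and 15.2 CPM in WT, 9.06, 5.82 and 3.16 in P2-, 39.8, 7.57 and 7.77 in P2+, and 16.6, 10.3 and 9.28 in KO. P2+ library 1 was about as high as WT library 1, whereas the other P2+ libraries lay below every WT library and below P2- library 1. Among the 4 comparisons edgeR called Irf8 in P2- against WT, where it fell by 1.75 (SE 0.43, adjusted p = 0.0211), or by 1.15 without WT library 1 (adjusted p = 0.0914). Between P2+ and P2- the log2 fold change was 1.62 ± 0.67 (adjusted p = 0.0884). With the replicate number as a block, which compares each P2+ library with the P2- library of its number, the value was 1.37 with an adjusted p of 0.000869, and within each of the 3 pairs P2+ was the higher. Without P2+ library 1 the unpaired value was 0.37 (adjusted p = 0.539), and without the libraries numbered 1 of both fractions it was 0.80 (adjusted p = 0.169). Between KO and WT it was -0.76 ± 0.30 (adjusted p = 0.105), or -0.16 without WT library 1 (adjusted p = 0.717), and between P2+ and WT -0.16 ± 0.59 (adjusted p = 0.891). Its nearest genes over the 12 libraries were Mpeg1 (r = 0.947) and F13a1 (r = 0.913), both on the list of monocyte and macrophage markers read below.

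Mpo encodes myeloperoxidase of the azurophil granules and lies on chr11:87793581-87804413. It had 139, 51.0 and 52.8 CPM in WT, 9.86, 16.6 and 7.16 in P2-, 185, 52.8 and 75.5 in P2+, and 44.4, 23.2 and 13.7 in KO. Every P2- and KO library lay below every WT and P2+ library, while WT and P2+ overlapped. Mpo was 3.24 ± 0.49 higher in P2+ than in P2- on the log2 scale (adjusted p = 0.00107), with means of 104 and 11.2 CPM. It fell by 2.86 in P2- against WT (SE 0.41, adjusted p = 0.00126) and by 1.58 in KO against WT (SE 0.35, adjusted p = 0.00413). Without P2+ library 1 the first value was 2.54, and without WT library 1 the values against WT were -2.22 in P2- and -0.94 in KO, each still called. DESeq2 gave the same size for KO against WT with an adjusted p of 0.0954. P2+ against WT was 0.37 ± 0.46 (adjusted p = 0.643). Mpo varied more within groups than Lyz2 did, with a coefficient of variation of 43.3% to 67.6%. Emb (r = 0.969) and Ncf1 (r = 0.962), a subunit gene of the phagocyte oxidase, were its nearest genes. Gm11505 overlaps Mpo on the other strand.

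Elane, Prtn3 and Ctsg encode the serine proteases of the same granules, neutrophil elastase, proteinase 3 and cathepsin G. Prtn3 (chr10:79874476-79883174) and Elane (chr10:79886247-79888215) are neighbours, with 3072 bases between them, and Ctsg lies on chr14:56099881-56102574. The log2 CPM of Prtn3 and Elane correlated at 0.374 over the 12 libraries.

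Prtn3 had 27.7, 17.5 and 16.9 CPM in WT, 10.5, 11.8 and 13.3 in P2-, 42.7, 29.0 and 34.7 in P2+, and 15.1, 13.4 and 12.8 in KO. All P2+ libraries were above all WT libraries, which were above all libraries of P2- and KO. The log2 fold change was 1.58 ± 0.17 in P2+ against P2- (adjusted p = 0.000174) and 0.78 ± 0.20 in P2+ against WT (adjusted p = 0.0266). Prtn3 fell by 0.79 in P2- against WT (SE 0.21, adjusted p = 0.0279) and by 0.60 in KO against WT (SE 0.18, adjusted p = 0.0324). Without WT library 1 the KO value was -0.33 (adjusted p = 0.216). Plppr3 overlaps Prtn3 on the other strand. Elane was lower throughout, at 8.96, 8.14 and 5.54 CPM in WT, 2.07, 6.39 and 1.90 in P2-, 5.28, 6.67 and 1.83 in P2+, and 1.74, 2.57 and 0.0910 in KO. By edgeR its only call was in KO, where it fell by 2.34 against WT (SE 0.47, adjusted p = 0.00219, with 20, 30 and 1 counts in the KO libraries). Without KO library 2 the value was -3.01. DESeq2 gave an adjusted p of 0.0950 for this comparison. P2+ and P2- gave 0.44 ± 0.58 (adjusted p = 0.596), P2+ and WT -0.71 ± 0.40 (adjusted p = 0.264) and P2- and WT -1.14 ± 0.43 (adjusted p = 0.101). DESeq2 called Elane lower in P2- than in WT (adjusted p = 0.0305). The mean of Elane was highest in WT, although P2- library 2 and P2+ library 2 lay above WT library 3. Within P2- and within P2+ the library numbered 2 was the highest.

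Ctsg was sparse, with 184, 52 and 46 counts in WT, 13, 14 and 1 in P2-, 176, 29 and 36 in P2+, and 34, 20 and 12 in KO. In CPM these were 12.8, 4.41 and 3.36 in WT, 1.03, 1.33 and 0.0702 in P2-, 14.7, 2.01 and 2.74 in P2+, and 2.97, 1.71 and 1.09 in KO. Only the libraries numbered 1 of WT and P2+ exceeded 5 CPM, and the other P2+ libraries lay below every WT library. Ctsg was 3.04 ± 0.95 higher in P2+ than in P2- (adjusted p = 0.0330). Without P2+ library 1 this value was 1.60 (adjusted p = 0.169) and without P2- library 3 it was 2.44 (adjusted p = 0.0924). It fell by 3.12 in P2- against WT (SE 0.71, adjusted p = 0.0146) and by 1.84 in KO against WT (SE 0.46, adjusted p = 0.0110). Without WT library 1 these became -2.29 (adjusted p = 0.0757) and -1.01 (adjusted p = 0.131), and without P2- library 3 the former was -2.53. P2+ against WT was -0.09 ± 0.70 (adjusted p = 0.947).

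Lyz2, on chr10:117277331-117282321, encodes lysozyme M of monocytes, macrophages and neutrophils. It had 96.4, 87.2 and 106 CPM in WT, 41.4, 53.3 and 33.2 in P2-, 175, 187 and 192 in P2+, and 58.1, 59.0 and 48.7 in KO. P2+, WT and KO formed separate ranges in this descending order, with P2- and KO overlapping. The changes were large against the spread of 4.76% to 23.7%. Lyz2 was 2.12 ± 0.16 higher in P2+ than in P2- (adjusted p = 1.86e-05) and 0.94 ± 0.09 higher in P2+ than in WT (adjusted p = 8.72e-05). It fell by 0.81 in KO (SE 0.09, adjusted p = 9.11e-06) and by 1.17 in P2- (SE 0.15, adjusted p = 0.000687) against WT. The paralog Lyz1, with which reads could be shared, had 0 counts in each of the 12 libraries. Its nearest genes were Hmgn2 (r = 0.990) and Pkm (r = 0.982), and neither is a marker of a myeloid cell type.

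Csf1r encodes the receptor of M-CSF, the growth factor of macrophages, and lies on chromosome 18. It was sparse and in P2- near the floor, with 108, 15 and 10 counts in WT, 6, 3 and 0 in P2-, 78, 17 and 29 in P2+, and 20, 19 and 7 in KO. These counts correspond to 7.50, 1.27 and 0.729 CPM in WT, 0.477, 0.286 and 0 in P2-, 6.53, 1.18 and 2.21 in P2+, and 1.74, 1.63 and 0.637 in KO. P2- lay below all other libraries, and the other 3 groups overlapped. Between P2+ and P2- it reached the filter of 1 CPM only through the P2+ libraries, where it is high, so its fitted log2 fold change of 3.70 ± 0.92 is a description and rests on 9 counts in P2-. KO and WT gave -1.26 ± 0.66 (adjusted p = 0.234), or 0.43 without WT library 1 (adjusted p = 0.710), and P2+ and WT 0.04 ± 0.80 (adjusted p = 0.984). In P2- against WT too few libraries reached 1 CPM and the gene was not tested. F13a1 was its nearest gene (r = 0.952). Hmgxb3 overlaps Csf1r on the other strand.

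Csf3r encodes the G-CSF receptor of the neutrophil lineage and lies on chr4:126024550-126044440. It had 13.2, 5.51 and 7.88 CPM in WT, 4.37, 4.67 and 5.06 in P2-, 39.4, 33.1 and 33.7 in P2+, and 15.4, 12.9 and 13.7 in KO. The order of the means was P2+, KO, WT and P2-, and this was the only one of the 10 genes with a higher mean in KO than in WT when all libraries were used. WT library 1 overlapped KO and the other WT libraries lay below it. Csf3r was 2.91 ± 0.15 higher in P2+ than in P2- (adjusted p = 3.82e-06) and 1.99 ± 0.25 higher in P2+ than in WT (adjusted p = 0.000534). KO against WT was 0.64 ± 0.24 (adjusted p = 0.0818), and P2- against WT was -0.90 ± 0.30 (adjusted p = 0.0694) although the libraries of these 2 groups did not overlap. Without WT library 1 the KO value was 1.04 and was called. The genes most alike were Fcgr2b (r = 0.978), the mast cell gene Ms4a2 (r = 0.973) and Nlrc3 (r = 0.967).

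**Figure D2:**
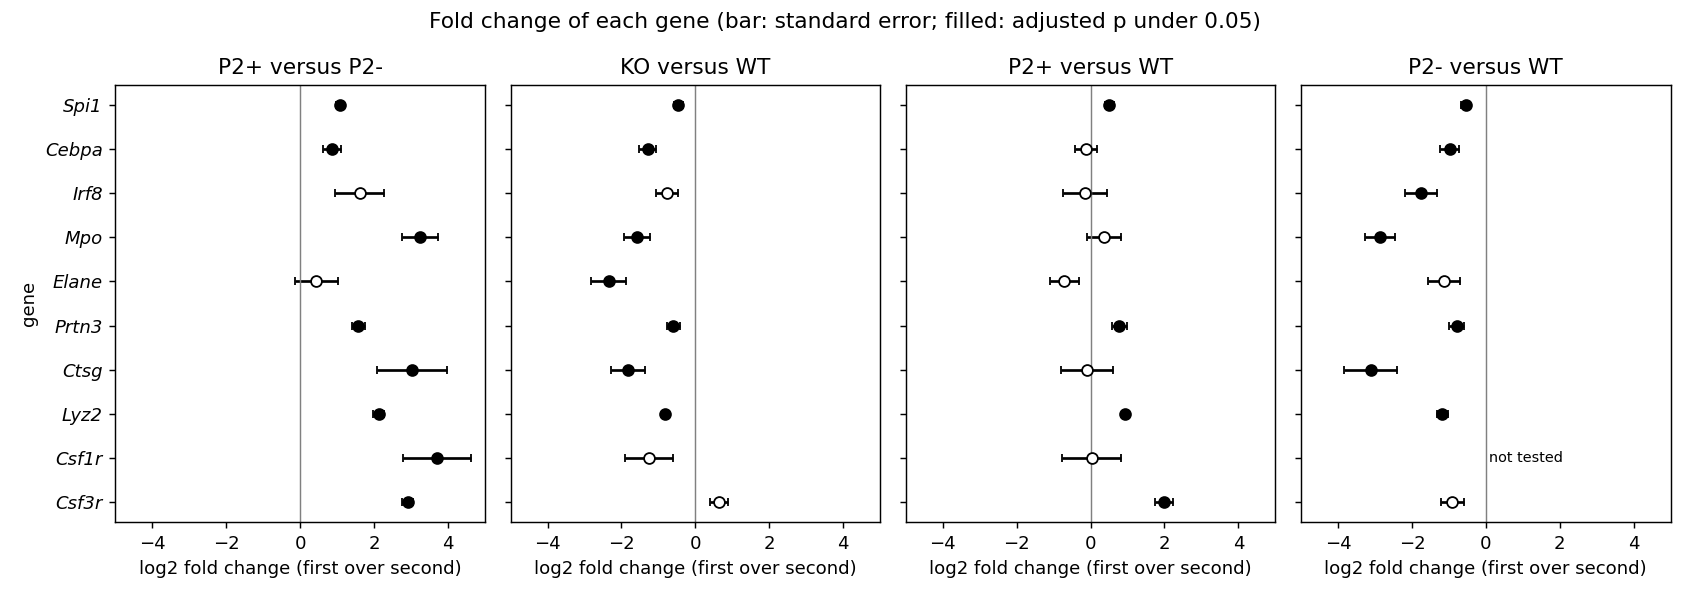
Log2 fold change (horizontal axis, first group over second) of each gene in 4 comparisons, with its standard error as a bar; filled circles passed an adjusted p of 0.05 and open circles did not. All 10 points are right of 0 for P2+ versus P2-, and in KO versus WT Csf3r is the only point right of 0.

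P2+ and P2- PreMegEs were compared to ask how the 2 fractions of 1 progenitor gate differ. Of the 10 genes, Csf1r was tested only through the P2+ libraries and is left out of the count of calls. Among the other 9, 7 were higher in P2+ (Spi1, Cebpa, Mpo, Prtn3, Ctsg, Lyz2 and Csf3r) and none was lower, where 20.1% of 12836 tested genes were higher and 17.0% lower. The median log2 fold change of the 9 was 1.62, against -0.02 over all tested genes, and Cebpa was the only one of the 7 that changed less than 2-fold. This fit did not pair the libraries, as in the methods of the study. With the replicate number as a block, Irf8 was called in addition, which made 8 calls among the 9. In the 7 genes every P2+ library was above every P2- library, which held for 25.4% of tested genes. Leaving out single libraries gave 5 to 8 calls among the 9. Cebpa was lost without P2+ library 1, P2+ library 3 or P2- library 1, and Ctsg without P2+ library 1, P2- library 1 or P2- library 3. Irf8 was called without P2+ library 2. Without the libraries numbered 1 of both fractions, 5 genes were called, and Spi1, Mpo, Prtn3, Lyz2 and Csf3r were among the calls in all of these settings.

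Other genes of the program were read from lists, and a listed gene need not be exclusive to its cell type. Genes that were called but reached 1 CPM in no P2- library are given apart, since they entered the test through P2+ alone. Among 9 receptors of myeloid cytokines and pathogens, 6 were higher in P2+ and Flt3 was such a gene (median log2 fold change of the other 8, 2.17). The 6 included Il6ra at 3.97 ± 0.36, the IL-3, IL-5 and GM-CSF signalling subunit Csf2rb at 3.13 ± 0.36 and the lipopolysaccharide receptor Tlr4 at 2.25 ± 0.25. Of 13 tested genes typical of promyelocytes and granulocyte-macrophage progenitors, 6 were higher, 1 was lower and Ms4a3 had entered through P2+ alone (median of the other 12, 0.66). Serpinb1a, an inhibitor of granule proteases, was 2.26 ± 0.11 higher, whereas Plac8 fell by 0.91 (SE 0.24). Among the granulocyte-macrophage transcription factors, Irf5 at 2.13 ± 0.23 and Zeb2 at 0.77 ± 0.15 were higher. Markers of other cells moved as well. Of the 8 mast cell and basophil markers, 4 were tested. Cpa3, Ms4a2 and Hdc were higher in P2+, and Fcer1a, at 0 in all P2- libraries, had entered through P2+ alone. The 8 markers summed to 100 to 157 CPM in P2+ and 31.6 to 37.3 CPM in P2-. Cma1 was at 0 in all 12 libraries. Of 8 tested monocyte and macrophage markers, 3 were higher (F13a1, Ms4a6c and Itgam) and 1 was lower (Cx3cr1). Of 3 tested markers of mature neutrophils edgeR and DESeq2 called none, with none at an unadjusted p under 0.05, and of 3 tested dendritic cell markers both called none, with 1 at an unadjusted p under 0.05. Of Ly6a, Fcgr3 and Fcgr2b, genes of antigens that the PreMegE gate excludes, Fcgr2b was higher at 1.15 ± 0.15. In the list of 12 PreMegE markers, 3 were higher and 5 lower. That list also holds Itga2b (CD41) and Eng (Endoglin), whose proteins the gate excludes. Itga2b was higher at 2.48 ± 0.17 and Eng was not called. The part of these cell types in the values of the 10 genes was not tested.

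KO and WT PreMegEs were compared to ask what the loss of RUNX1C changes. Of the 10 genes, 7 were lower in KO and none was higher, where 8.76% of 12784 tested genes were lower and 6.18% higher. The median log2 fold change was -1.03, against 0.00 over all tested genes, and 4 of the 7, Cebpa, Mpo, Elane and Ctsg, changed at least 2-fold. In the same 7 genes every KO library was below every WT library, which held for 16.2% of tested genes. A single fit of all 12 libraries gave 4 calls, with Mpo, Prtn3 and Ctsg lost, and DESeq2 gave 5, with Mpo and Elane lost. Leaving out single libraries gave 5 to 8 calls. Prtn3 was lost without KO library 1, 2 or 3 or WT library 1, Spi1 without KO library 1 or WT library 1, and Ctsg without KO library 3 or WT library 1. Csf3r was called higher without WT library 1 and Irf8 lower without WT library 2. Cebpa, Mpo, Elane and Lyz2 were called by edgeR without any 1 library.

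The progenitor stage list was lower as well, with 8 of 13 tested genes lower in KO, and none higher. Hp was called too but reached 1 CPM in no KO library and so entered the test through WT alone, and the median of the other 12 was -1.12. Nkg7 fell by 1.20 (SE 0.06), the serine protease gene Prss57 by 2.14 (SE 0.35), Serpinb1a by 1.04 (SE 0.11) and Clec12a by 2.07 (SE 0.56). Of the 9 receptors, Il6ra fell by 0.84 (SE 0.23) and Tlr4 by 0.72 (SE 0.21), and none was higher (median -0.43). Among 7 tested granulocyte-macrophage transcription factors, Zeb2 fell by 0.55 (SE 0.07) and no other was called. Monocyte and macrophage markers summed to 39.6 to 58.3 CPM in KO and 49.6 to 139 CPM in WT, and 1 of 8 tested, Cx3cr1, was lower. Of 3 tested mast cell and basophil markers, Cpa3 and Ms4a2 were higher in KO by edgeR, and DESeq2 called 1 of the 3. In 3 others that were not tested every KO library was below every WT library, with means of 0.0857 and 3.77 CPM for Fcer1a, 0 and 0.805 for Gzmb and 0 and 0.607 for Prss34. The part of these cells in the values was not tested.

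Both reporter fractions were also set beside WT. These comparisons and that of KO share the 3 WT libraries, and no value of one is independent of the others. In P2+ against WT, 4 of the 10 genes, Spi1, Prtn3, Lyz2 and Csf3r, were higher and none was lower, where 9.45% of 12941 tested genes were higher and 7.07% lower. All P2+ libraries exceeded all WT libraries in these 4 genes, which held for 18.0% of tested genes. The median log2 fold change was 0.20, and only Csf3r changed at least 2-fold. Without P2+ library 1, Irf8 was called lower than in WT, at -1.40 with an adjusted p of 0.0486. Without WT library 2, Spi1 and Prtn3 were not called, which left Lyz2 and Csf3r as the 2 calls, and Prtn3 was also lost without P2+ library 1, P2+ library 3 or WT library 3. Of the 9 receptors, 6 were higher (median 0.70), with Csf2rb at 1.82 ± 0.26 and Csf2rb2 at 1.83 ± 0.29. Of 13 tested progenitor stage genes edgeR called 2, with Serpinb1a higher at 0.66 ± 0.08 and Plac8 falling by 1.38 (SE 0.22), and DESeq2 called 5. Of 9 tested transcription factors edgeR called Cebpb, at 1.22 ± 0.37, and DESeq2 called 2, Cebpb and Irf5. Mast cell and basophil markers were also higher than in WT in 3 of 4 tested, Cpa3 at 1.47 ± 0.15, Ms4a2 at 2.05 ± 0.27 and Hdc at 1.73 ± 0.28. Of the genes for antigens that the PreMegE gate excludes, Ly6a (1.53 ± 0.36), Fcgr2b (0.98 ± 0.17) and Itga2b (0.86 ± 0.11) were higher. Fcgr3 and Eng were not called. The part of mast cells, basophils or cells outside the gate in the values of the 10 genes was not tested.

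In P2- against WT, edgeR called 7 of the 9 tested genes lower and none higher, where 9.60% of 12767 tested genes were lower and 6.85% higher. The exceptions were Elane and Csf3r, which DESeq2 called lower (adjusted p = 0.0305 and 0.0289), and Csf1r was not tested. All P2- libraries were below all WT libraries in 9 of the 10 genes, Elane being the exception, and in 18.6% of tested genes. The median was -1.14, and Irf8, Mpo, Ctsg and Lyz2 changed at least 2-fold. Without WT library 1, 2 genes were called, Mpo and Lyz2, and Spi1, Cebpa, Irf8, Prtn3 and Ctsg were not. Without P2- library 1, 4 were called, with Spi1, Cebpa and Prtn3 lost, Irf8 was lost without P2- library 3, and Spi1 and Cebpa were lost without WT library 3. Elane was called without P2- library 2 and Csf3r without WT library 2. Of the 9 receptors, 6 were lower and Flt3, which reached 1 CPM in no P2- library, had entered through WT alone (median of the other 8, -1.23), and Il6ra fell by 2.85 (SE 0.37). Of 13 tested progenitor stage genes, 5 were lower and Ms4a3 had entered through WT alone (median of the other 12, -1.04), with Ly6c2 falling by 2.78 (SE 0.57). Monocyte and macrophage markers summed to 26.2 to 35.9 CPM in P2- against 49.6 to 139 in WT, with 4 of 8 tested lower, among them F13a1 at -2.60 ± 0.66 and Ccr2 at -2.34 ± 0.47. Of 7 tested transcription factors, Irf5 fell by 1.32 (SE 0.29) and Zeb2 by 0.53 (SE 0.12). Mature neutrophil markers went the other way. Of 3 tested, edgeR called none, although all 3 had an unadjusted p under 0.05 and the median was 2.63. DESeq2 called S100a9. In 2 of the 12 listed, every P2- library was above every WT library. The 12 summed to 6.52, 88.1 and 8.78 CPM in P2- and to 5.26 to 6.11 in WT. The part of monocytes or neutrophils in these values was not tested.

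As a description of the group means, chosen after seeing the data, WT lay between P2- and P2+ for Lyz2, Spi1, Prtn3 and Csf3r with or without library 1 of WT or of P2+. On the CPM scale it lay 37.9% of the way from P2- to P2+ for Lyz2 and 43.3% for Spi1, and without WT library 1 these were 38.0% and 37.1%. Prtn3 at 37.3% and Csf3r at 13.6% became 22.4% and 6.50%. The place of WT for Mpo and Csf1r moved down without WT library 1 and up without P2+ library 1. For Mpo it was 74.8% with all libraries, 43.7% without WT library 1 and 132% without P2+ library 1, and for Csf1r these were 95.4%, 24.4% and 202%. For Cebpa, Irf8 and Ctsg the WT mean was above that of P2+ with all libraries and between P2- and P2+ without WT library 1. The ratio of the KO mean to the WT mean was 0.573 for Lyz2 and 0.732 for Spi1, and 0.572 and 0.768 without WT library 1. That ratio changed from 0.335 to 0.523 for Mpo, from 0.594 to 0.902 for Irf8, from 0.281 to 0.496 for Ctsg and from 0.422 to 1.34 for Csf1r when WT library 1 was left out.

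**Figure D3:**
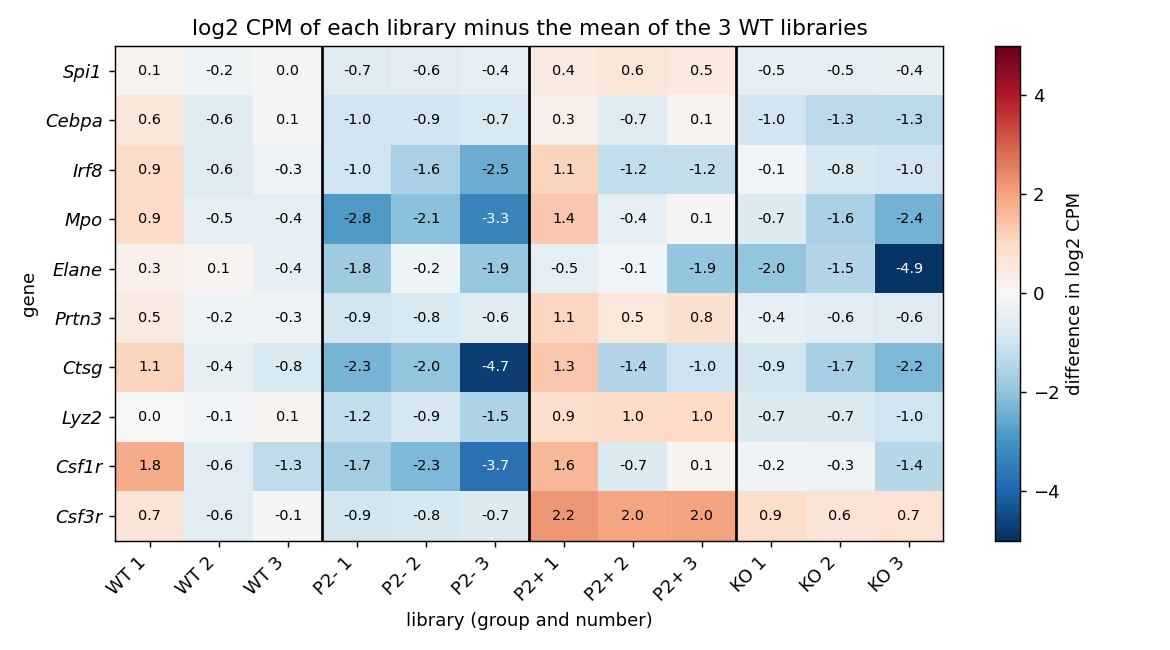
Log2 CPM (prior count of 2) of each gene in each of the 12 libraries minus the mean of the 3 WT libraries, as a color from blue (below WT) to red (above WT) with the value printed. Spi1 is even within each group and Lyz2 in all but P2-, whereas for Irf8, Mpo, Ctsg and Csf1r, WT library 1 and P2+ library 1 lie well above the others of their group. The library numbered 1 is the reddest of WT, P2+ and KO in 7 of the 10 genes, the others being Spi1, Elane and Lyz2.

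The libraries of 1 group differed in a way that was shared by some of the genes and not by others. For Mpo, library 1 was 2.68 times the mean of libraries 2 and 3 in WT, 2.88 times in P2+ and 2.40 times in KO, and 0.830 times in P2-. For Irf8 these ratios were 2.56 in WT, 5.19 in P2+, 1.69 in KO and 2.02 in P2-. For Spi1 they lay between 0.899 and 1.15 and for Lyz2 between 0.924 and 1.08. After the group means were removed, the deviations of Irf8 and Ctsg correlated at 0.909 and those of Mpo and Ctsg at 0.893 over the 12 libraries, whereas those of Spi1 and Ctsg gave -0.381. The genes of 1 library share its depth and cell sort, so these correlations are descriptions only.

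Some monocyte and macrophage markers were high in the same libraries. The list of 14 genes summed to 139, 49.6 and 61.9 CPM in WT, 133, 48.3 and 40.7 in P2+, 58.3, 40.4 and 39.6 in KO, and 35.9, 34.5 and 26.2 in P2-. A few genes carried this sum. In the 3 P2+ libraries Mpeg1 had 41.1, 11.0 and 4.34 CPM, F13a1 37.9, 6.87 and 10.6, Ccr2 16.1, 3.68 and 4.04, and Ms4a6c 14.8, 6.39 and 3.58. Itgam stayed between 5.69 and 7.16 CPM there and Cd68 between 3.05 and 4.79. The receptor list also summed highest in P2+ library 1, at 243 CPM against 149 and 208, as did the mast cell and basophil list, at 157 against 130 and 100.4, and the lymphocyte list, at 46.5 against 24.9 and 24.5. Summed over Mpo, Irf8, Ctsg and Csf1r, genes grouped here after their values were seen, the level was 193, 68.2 and 72.1 CPM in WT, 246, 63.5 and 88.2 in P2+, 65.7, 36.8 and 24.8 in KO, and 20.4, 24.0 and 10.4 in P2-. Adgre1, which encodes F4/80, was at 0 in 10 of the 12 libraries and did not exceed 0.278 CPM. Mature neutrophil markers followed other libraries. Their sum was 88.1 CPM in P2- library 2 and 66.0 in P2+ library 2, and between 0.273 and 9.42 in the other 10. Fos, an immediate early gene, was also high in these 2, at 1317 and 908 CPM. Elane was the highest of its group there. The part of such cells in the values of the 10 genes was not tested.

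**Figure D4:**
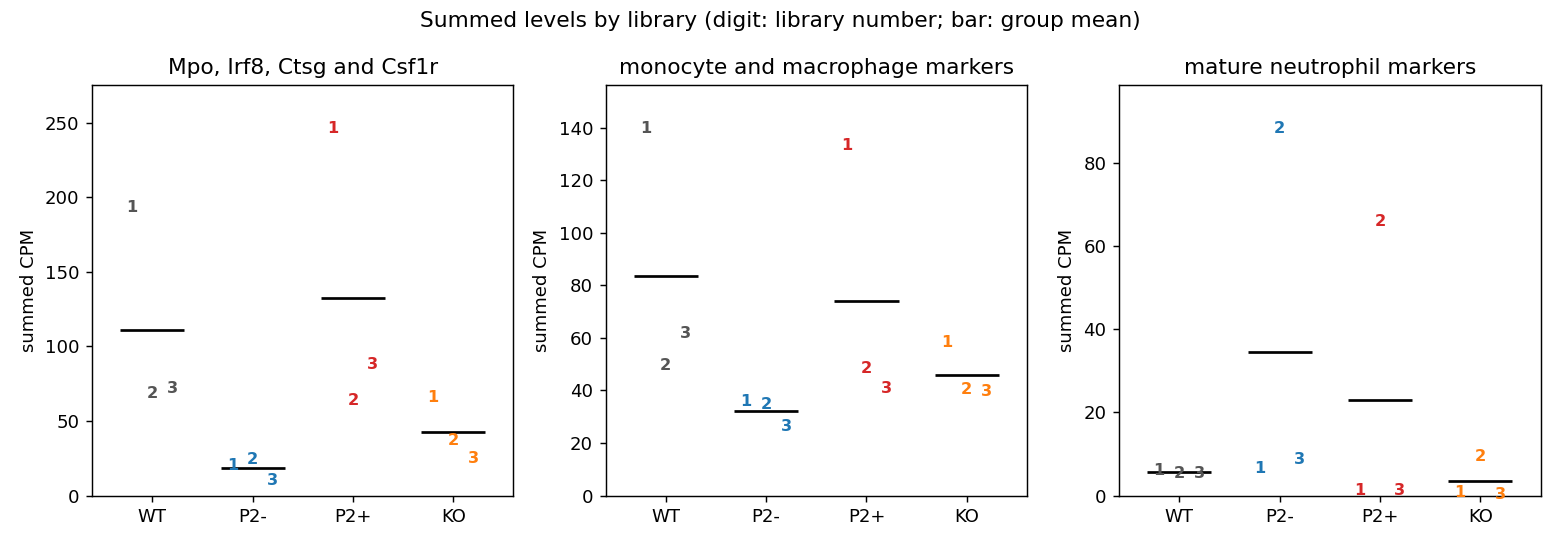
Summed CPM by library (vertical axes from 0) of Mpo, Irf8, Ctsg and Csf1r, of 14 monocyte and macrophage markers, and of 12 mature neutrophil markers; digits are library numbers and bars are group means. Library 1 of WT and P2+ stands apart in the left and middle panels and library 2 of P2- and P2+ in the right panel.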

How the data were processed

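RNA of sorted PreMegEs was sequenced from strand-specific poly(A) libraries. Per the study's methods, the authors aligned reads to GRCm38 with Bowtie2 and counted them per Ensembl gene with featureCounts, and the deposited raw counts of 12 libraries are used without change. The submitters' processing notes also name R 3.1.0, SAMtools 0.1.19 and edgeR 3.8.5. For each comparison, genes reaching 1 CPM or more in 3 or more of its 6 libraries were tested with the quasi-likelihood test of edgeR 4.0.16 (TMM scaling, Benjamini-Hochberg adjustment over all genes tested), called at an adjusted p under 0.05. The script was tested on simulated counts. CPM levels were scaled over all 12 libraries, and RPKM used exon lengths of GENCODE vM21. DESeq2, RLE scaling, the edgeR exact test used by the study, no filter, a 2-fold minimum, 1 fit of all libraries, a replicate block and left-out libraries were alternatives.

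The 10 genes were named by symbol, and the genes most alike were the 3 of highest Pearson r of log2 CPM among genes with a mean of at least 10 CPM. Genes, lists and motifs were chosen with earlier results of these data known. Each library pooled 3 mice, and p-values measure the spread between pools. P2- and P2+ libraries of 1 number correlated in their deviations from the group means (0.386, 0.572 and 0.405 across genes), so the number was taken to pair them. KO and WT libraries gave 0.158, 0.0234 and 0.0703 and were not paired. Some genes of the lists are not reported here by name.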

Additional observations from a re-analysis of the deposited data

How the results depend on the processing

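The number of the 10 genes called stayed within 1.5 times of that reported under RLE scaling, DESeq2, the edgeR exact test and no filter on CPM, in all 4 comparisons. Asking for a 2-fold change left 4 calls in KO versus WT, 1 in P2+ versus WT and 4 in P2- versus WT, and over all genes 1626 of 4762 calls in P2+ versus P2-, 436 of 1910 in KO versus WT, 497 of 2138 in P2+ versus WT and 597 of 2101 in P2- versus WT. A single fit of all 12 libraries gave 4 calls in KO versus WT, with Mpo, Prtn3 and Ctsg lost. DESeq2 lost Mpo and Elane in KO versus WT (adjusted p = 0.0954 and 0.0950). With the replicate number as a block, 9 genes were called in P2+ versus P2-, 9 in KO versus WT (Irf8 lower and Csf3r higher being added), 4 in P2+ versus WT and 6 in P2- versus WT. The block changed no other call in P2+ versus P2- than that of Irf8. Csf1r, which entered that comparison through P2+ alone, is included in the counts of this section. Outside P2+ and P2- the numbers are not known to pair the samples.

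Leaving out libraries gave 5 to 8 calls in P2+ versus P2-, 5 to 8 in KO versus WT, 2 to 4 in P2+ versus WT and 2 to 9 in P2- versus WT. This includes leaving out the libraries numbered 1, or 2, of both groups, which was chosen after seeing the data, and the fewest calls over all genes were then 2553, 1095, 928 and 635 in the same order. These fits hold fewer libraries and test fewer genes. Signs turned in them for 6 fold changes, none called in the fit of all 6 libraries. In P2+ versus WT the ranges were -0.33 to 1.01 for Mpo, -0.37 to 0.20 for Cebpa, -1.40 to 0.45 for Irf8, -1.52 to 0.73 for Ctsg and -0.91 to 1.72 for Csf1r. In KO versus WT, Csf1r ranged from -1.73 to 0.43. Low counts limit Csf1r, Ctsg and Elane.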
